A study of Rattus norvegicus with 2 samples.

Results

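The genes of fibrillar and associated collagens were described in single-cell transcriptomes of skeletal muscle from 1 rat-mouse chimera and 1 Sprague Dawley (SD) rat. The 9 members, Col1a1, Col1a2, Col3a1, Col5a1, Col5a2, Col5a3, Col11a1, Col12a1 and Col14a1, were chosen by gene name alone, and each name matched 1 of the 23373 rat genes and 1 of the 25906 mouse genes in the reference. The chimera was made by injecting mouse induced pluripotent stem cells (iPSCs) into an SD rat morula, and its muscle therefore held cells of both species. The iPSCs carried the Dmd mdx mutation, which had been edited with CRISPR/Cas9 in the injected line, and the Pax7-nGFP reporter, a nuclear GFP under Pax7 control that marks satellite cells. The SD rat had received no cells, and the rat cells of the chimera carried neither the edit nor the reporter. In both groups, muscle was taken from the whole body, minced, digested with collagenase II and sorted for live cells by a viability dye before droplet capture, and the labels give no age for either animal.

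Populations of 3 kinds were compared, namely SD rat cells, chimera rat cells (at most 20% of UMIs on mouse genes) and chimera mouse cells (at least 80%). A unique molecular identifier (UMI) marks 1 captured transcript, and levels are given as CPM, the UMIs of a gene per 1000000 UMIs on genes of the cells' own species, summed over all cells of a class. Each group was 1 library from 1 animal, so that differences between groups could not be tested against replicates. Exact 95% intervals are given for counting error and cover neither animals nor libraries.

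Fibrillar collagens are triple-helical proteins that assemble into the cross-striated fibrils of connective tissue. Type I collagen is a trimer of the chains encoded by Col1a1 and Col1a2 and is the main load-bearing collagen of tendon, and type III collagen, a homotrimer of the Col3a1 product, forms finer fibrils in distensible tissue such as the endomysium and vessel walls. Types V and XI, which include the products of Col5a1, Col5a2, Col5a3 and Col11a1, sit within the fibrils of the major collagens and govern their initiation and diameter, and types XII and XIV, encoded by Col12a1 and Col14a1, do not form fibrils themselves but bind along fibril surfaces. In skeletal muscle these genes are known chiefly from fibro-adipogenic progenitors (FAPs), the resident interstitial fibroblasts, and from tenocytes, the fibroblasts of tendon and of the myotendinous junction.

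RefSeq promoter windows were available for 5 of the 9 rat members. The 250 bases before the start of Col1a2, Col5a3 and Col11a1 are printed because these 3 genes had different patterns across fibroblasts and tenocytes, being a type I chain raised in tenocytes, a type V chain raised in one FAP class and a chain found mostly in tenocytes. The windows are given in the RefSeq build GRCr8, which is not the build of the counts, 5′ to 3′ on the strand of the gene, at chr4:33518307-33518556 (plus strand) for Col1a2, chr8:27625949-27626198 (minus strand) for Col5a3 and chr2:204508886-204509135 (plus strand) for Col11a1. Capitals mark CCAAT, or ATTGG on the opposite strand, and TATAAA. The start is the one that the reference windows use, and it was not checked to be a transcription start.
Col1a2: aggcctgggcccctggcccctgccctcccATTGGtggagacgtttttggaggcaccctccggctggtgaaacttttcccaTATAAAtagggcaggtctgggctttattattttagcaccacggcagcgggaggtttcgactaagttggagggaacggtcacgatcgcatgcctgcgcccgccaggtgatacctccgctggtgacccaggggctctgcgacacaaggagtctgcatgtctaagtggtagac
Col5a3: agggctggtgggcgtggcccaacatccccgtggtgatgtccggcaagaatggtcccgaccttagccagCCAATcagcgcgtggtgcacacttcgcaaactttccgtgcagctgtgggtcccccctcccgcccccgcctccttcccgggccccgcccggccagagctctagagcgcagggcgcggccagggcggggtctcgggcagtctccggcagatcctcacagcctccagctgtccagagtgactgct
Col11a1: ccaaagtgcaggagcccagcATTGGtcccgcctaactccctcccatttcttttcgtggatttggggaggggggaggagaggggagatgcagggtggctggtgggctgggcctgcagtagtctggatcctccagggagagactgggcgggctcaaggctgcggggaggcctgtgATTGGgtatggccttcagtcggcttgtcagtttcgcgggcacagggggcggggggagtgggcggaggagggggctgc
Col1a2 held ATTGG 221 bases and TATAAA 170 bases before the start, Col5a3 held CCAAT 182 bases before it, and Col11a1 held ATTGG 230 and 77 bases before it, whereas the windows of Col5a1 and Col5a2 held neither word. Of 33469 rat promoter windows of the same length, 34.0% held CCAAT on either strand and 12.9% held TATAAA, and a match of letters is a description and not a binding site.

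Sequencing yielded 118872850 UMIs over 13299 barcodes for the chimera, and 70957559 UMIs over 10117 barcodes for the SD rat. After filtering, 8230 chimera rat cells, 1847 chimera mouse cells and 8816 SD rat cells entered the classes, with median depths of 8588.5, 6948 and 6276 UMIs, and 33 barcodes occurred in both libraries. Each population was clustered apart, with the 9 members and the related matrix genes left out of the clustering and of the naming. Classes named "X-like" from their markers were FAP-like cells (3207 SD rat, 2618 chimera rat and 125 mouse cells), tenocyte-like (522, 577 and 39), pericyte-like (384 and 258 rat cells), smooth muscle-like (155 cells, chimera rat only), glial-like (145, 99 and 25), vascular endothelial (EC)-like (1606, 721 and 1087), lymphatic endothelial (LyEC)-like (110 and 82 rat cells) and myogenic progenitor (MP)-like (359, 420 and 47). In rat cells, FAP-like cells were subdivided into Pi16 Mfap5 FAP-like (413 SD rat and 470 chimera rat cells), Smoc2 Cxcl14 FAP-like (1312 and 1215) and Myoc Sfrp4 fibroblast-like cells (1482 and 933). All 10 tenocyte markers were detected in the tenocyte-like cells of the 3 populations, summing to 14012, 14451 and 14086 CPM in SD rat, chimera rat and mouse cells, against 1262, 1182 and 1485 in FAP-like cells. The same markers had named the class, so their sums are no separate check of the name.

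T, NK and B-like cells, which are not known to make fibrillar collagens, were used as a measure of free RNA, and they held UMIs of every member. Their Col1a1 level was 1731 CPM in the SD rat (168 cells), 271 in chimera rat cells (1044 cells) and 28.2 in mouse cells (221 cells), or 8.89% and 2.09% of the FAP-like level in SD rat and chimera rat cells. Their Col3a1 level was 2161, 129 and 25.8. A single cell held 32.6% of the Col1a1 UMIs of the SD rat lymphoid cells and 44.0% of those of the chimera rat, while the median lymphoid cell stood at 422 and 104 CPM. A member is called clearly above the lymphoid level where the lower bound of its interval was at least 2-fold the upper bound of the lymphoid interval of the same population, a rule stricter than a 2-fold difference of levels. The lymphoid level was higher in the SD rat than in chimera rat cells for each of the 9 members. In the SD rat, myofibre-like cells stood at or below the lymphoid level for 9 members and EC-like cells for 5, Col3a1 among them. In chimera rat cells, these classes did so for 3 and 0 members. The lymphoid level is thus no common floor of the SD rat library. Counts of members clearly above it are not on the same scale in the SD rat and the chimera.

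**Figure D1:**
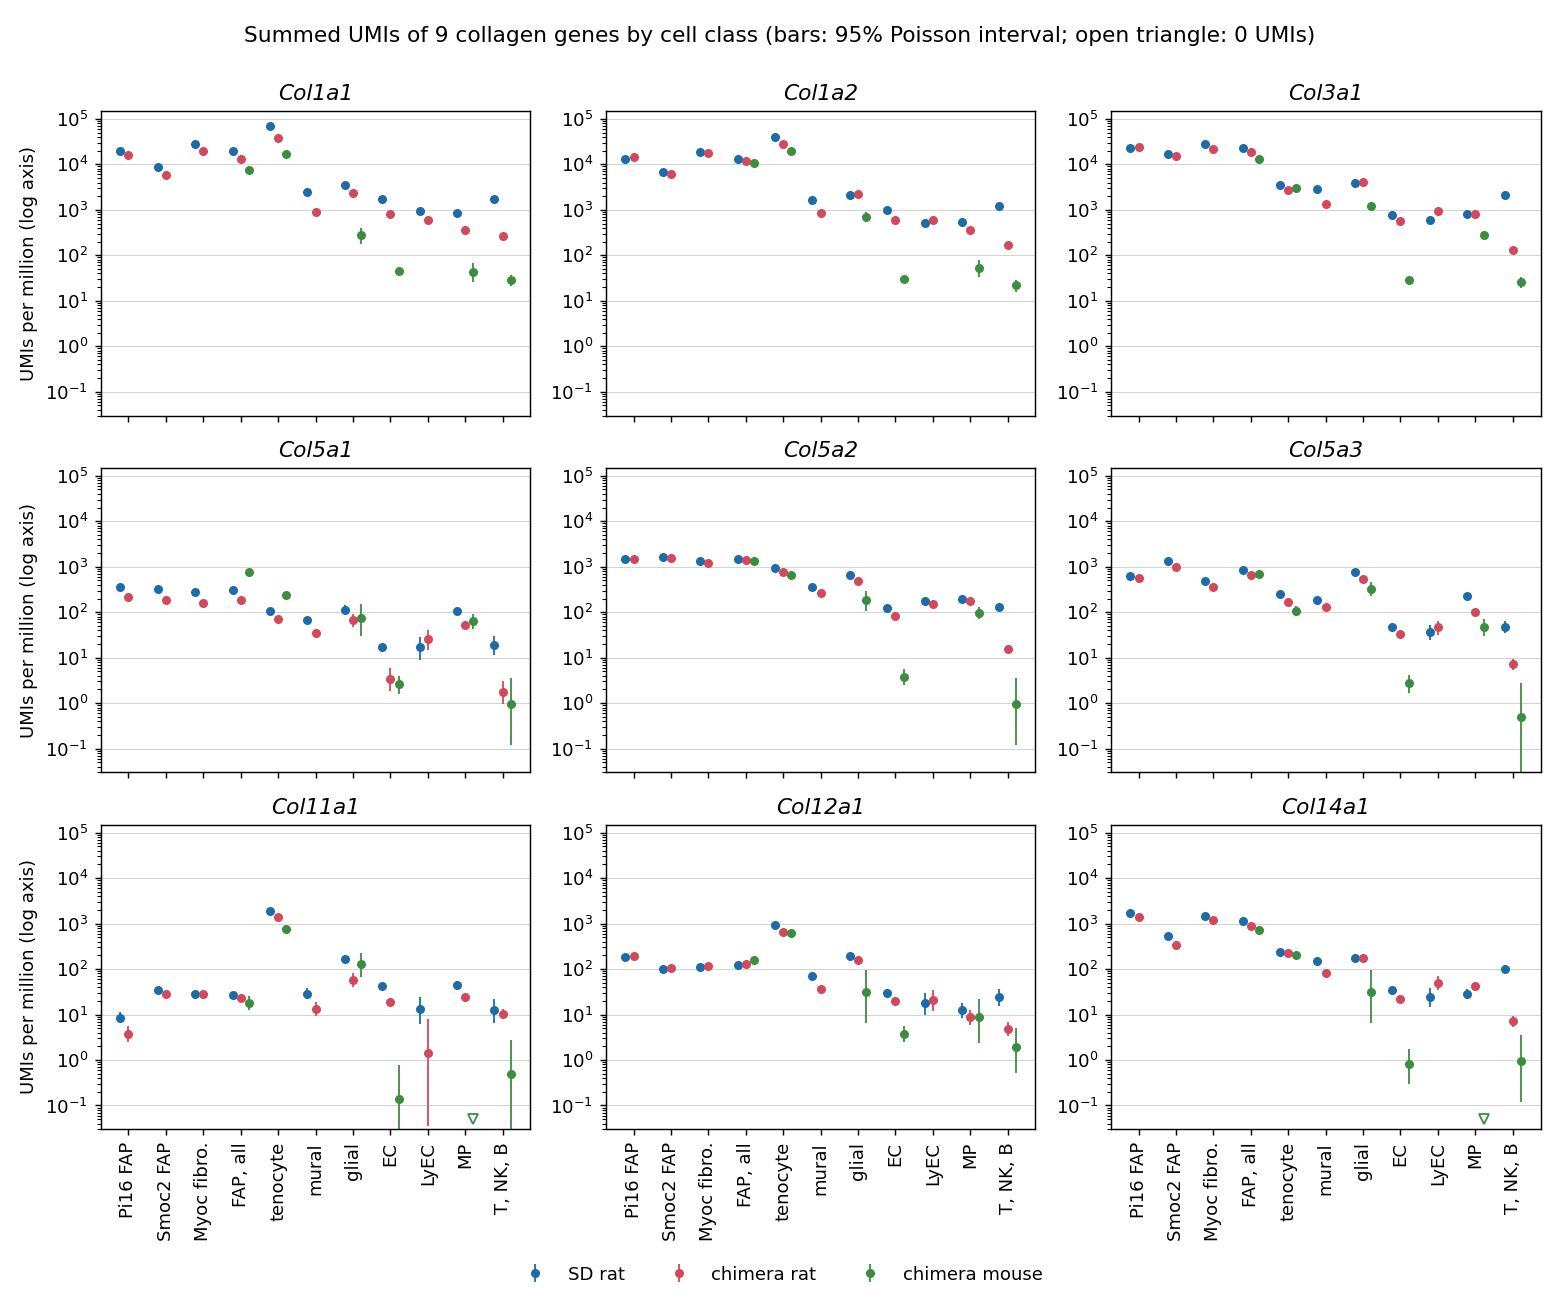
Level of each of the 9 collagen genes by cell class, in CPM on a log axis, with SD rat in blue, chimera rat in red and chimera mouse in green. Bars are exact 95% Poisson intervals for counting error and an open triangle marks a class with 0 UMIs. Col1a1, Col1a2, Col11a1 and Col12a1 stood highest in tenocyte-like cells, and Col3a1, Col5a3 and Col14a1 in a fibroblast class.

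The type I chains were highest in tenocyte-like cells taken as a class, though not in each of their clusters, as given further on. Col1a1 (ENSRNOG00000003897) reached 69421 CPM (interval 69175 to 69667) in SD rat, 38164 (37994 to 38335) in chimera rat and 16563 (16234 to 16896) in mouse tenocyte-like cells, against 19457, 12954 and 7395 in FAP-like cells. Among the rat fibroblast classes, Myoc Sfrp4 fibroblast-like cells were highest, with 28302 and 19462 in the SD rat and the chimera, followed by Pi16 Mfap5 FAP-like cells with 19345 and 16359 and Smoc2 Cxcl14 FAP-like cells with 8607 and 5731. This order of classes was shared by both libraries. No neighbouring intervals overlapped, but they cover counting error only, and clusters within the SD rat Myoc Sfrp4 class stood at 33761 and 20697. The median tenocyte-like cell stood at 46595 in the SD rat, 20964 in chimera rat and 11799 in mouse cells, so that the class level was not set by a few cells.

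Col1a2 (ENSRNOG00000011292), the partner chain, followed the same order of classes. Its level was 39376, 27714 and 19712 CPM in SD rat, chimera rat and mouse tenocyte-like cells, and 13477, 12019 and 10571 in FAP-like cells. In the fibroblast classes it ran from 6687 and 6175 in Smoc2 Cxcl14 FAP-like cells to 19175 and 17456 in Myoc Sfrp4 fibroblast-like cells. The ratio of Col1a1 to Col1a2 UMIs, which is compared here only between classes and populations, was 1.76 in SD rat, 1.38 in chimera rat and 0.840 in mouse tenocyte-like cells, and 1.44, 1.08 and 0.700 in FAP-like cells. Within each population the ratio was higher in tenocyte-like than in FAP-like cells, and within each of these classes it was highest in SD rat and lowest in mouse cells. In chimera rat cells, however, the mouse row received 15.8% of the Col1a1 UMIs of the pair but 7.60% of those of Col1a2. The ratios of the chimera are therefore not on the scale of the SD rat, and gene models differ between rat and mouse.

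Type III collagen had the opposite distribution. Col3a1 (ENSRNOG00000003357) stood at 3558 CPM (3502 to 3614) in SD rat, 2700 (2655 to 2746) in chimera rat and 2973 (2835 to 3116) in mouse tenocyte-like cells, against 22923, 19171 and 12921 in FAP-like cells. The fibroblast classes lay closer together for Col3a1 than for Col1a1, at 27554 and 21348 in Myoc Sfrp4 fibroblast-like, 23481 and 23743 in Pi16 Mfap5 FAP-like and 16967 and 14999 in Smoc2 Cxcl14 FAP-like cells, with the first 2 classes in opposite order in the 2 libraries. In the SD rat, the Myoc Sfrp4 class joined a cluster led by Sfrp4 and Cyp7b1, at 31690, and a cluster led by Prg4 and Sfrp4, at 21792. The chimera class was a single cluster. The ratio of Col1a1 to Col3a1 UMIs was thus 0.849, 0.676 and 0.572 in FAP-like cells of SD rat, chimera rat and mouse, and 19.5, 14.1 and 5.57 in their tenocyte-like cells.

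Of the type V chains, Col5a3 separated the fibroblast classes most clearly. Col5a3 (ENSRNOG00000020525) was highest in Smoc2 Cxcl14 FAP-like cells, with 1355 CPM in the SD rat and 991 in the chimera, against 620 and 551 in Pi16 Mfap5 FAP-like and 491 and 367 in Myoc Sfrp4 fibroblast-like cells. With each cell thinned to 1000 UMIs, 69.4% and 55.8% of Smoc2 Cxcl14 FAP-like cells held at least 1 Col5a3 UMI, 41.7% and 40.1% of Pi16 Mfap5 FAP-like and 33.0% and 26.8% of Myoc Sfrp4 fibroblast-like cells, the same order as the levels. The class in which Col1a1 and Col1a2 were lowest among fibroblasts was therefore the one in which Col5a3 was highest. In tenocyte-like cells Col5a3 was at 247, 170 and 108 in SD rat, chimera rat and mouse cells, against 835, 672 and 709 in FAP-like cells.

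Col5a2 (ENSRNOG00000003736), which encodes a chain shared by the common type V trimer, varied less among the fibroblast classes. It ran from 1319 CPM in Myoc Sfrp4 fibroblast-like to 1673 in Smoc2 Cxcl14 FAP-like cells of the SD rat, and from 1188 to 1548 in the same classes of the chimera. Tenocyte-like cells held 933, 757 and 652 in SD rat, chimera rat and mouse cells, and FAP-like cells 1481, 1408 and 1352. The ratio of Col5a3 to Col5a2 UMIs was 0.810 and 0.640 in Smoc2 Cxcl14 FAP-like cells of the SD rat and the chimera, but 0.413 and 0.369 in Pi16 Mfap5 FAP-like and 0.373 and 0.309 in Myoc Sfrp4 fibroblast-like cells. Col5a1 (ENSRNOG00000008749) stood at 309, 181 and 753 in FAP-like cells of SD rat, chimera rat and mouse and at 107, 70.9 and 241 in tenocyte-like cells. A large part of its rat reads in the chimera was counted on the mouse gene as described further on, so its levels in the chimera are not on the scale of the SD rat.

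Col11a1 (ENSRNOG00000023148), a type XI chain best known from cartilage, separated tenocyte-like cells from FAP-like cells most widely. It reached 1894 CPM in SD rat, 1373 in chimera rat and 763 in mouse tenocyte-like cells, against 27.6, 22.6 and 18.2 in FAP-like cells, where the lymphoid level was 12.7, 10.5 and 0.487. After thinning to 1000 UMIs, 74.8%, 66.4% and 53.8% of tenocyte-like cells held a Col11a1 UMI, compared with 2.6%, 1.4% and 1.6% of FAP-like cells. Pi16 Mfap5 FAP-like cells, at 8.53 and 3.82 CPM in the SD rat and the chimera, stood below the lymphoid cells of their own library.

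The fibril-surface collagens divided between the 2 cell types. Col12a1 (ENSRNOG00000058470) was at 939, 648 and 609 CPM in tenocyte-like cells of SD rat, chimera rat and mouse and at 121, 129 and 157 in FAP-like cells, and 58.4%, 47.7% and 43.6% of thinned tenocyte-like cells held a UMI against 9.2%, 9.8% and 8.1% of FAP-like cells. Col14a1 (ENSRNOG00000026415) was at 234, 227 and 200 in tenocyte-like and at 1153, 864 and 707 in FAP-like cells. Among fibroblasts it was highest in Pi16 Mfap5 FAP-like cells, with 1749 and 1369 in the SD rat and the chimera, followed by Myoc Sfrp4 fibroblast-like cells with 1433 and 1175 and Smoc2 Cxcl14 FAP-like cells with 541 and 342. Col14a1 and Col5a3 thus set the Smoc2 Cxcl14 class apart in opposite directions, in both libraries.

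Counted at a 2-fold difference, 4 of the 9 members were higher in tenocyte-like than in FAP-like cells of the SD rat (Col1a1, Col1a2, Col11a1 and Col12a1) and 4 were lower (Col3a1, Col5a1, Col5a3 and Col14a1), where 5.39% and 9.44% of all 11651 genes with at least 50 summed UMIs were that much higher or lower. Chimera rat cells gave 4 and 4 members, and the names were those of the SD rat, against a background of 4.8% and 11.3% of genes. Mouse cells gave 3 higher and 5 lower, against 4.08% and 17%, since Col1a2 was 0.90 higher on the log2 scale and Col5a2 1.05 lower. The log2 ratio of tenocyte-like to FAP-like cells was largest for Col11a1, at 6.05, 5.86 and 5.31 in SD rat, chimera rat and mouse cells, and Col12a1 followed at 2.95, 2.32 and 1.95. On the other side stood Col3a1 at -2.69, -2.83 and -2.12 and Col14a1 at -2.29, -1.92 and -1.82. All 9 members had the same direction in the 3 populations, of which the 2 chimera populations came from 1 library.

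Counted together, the 9 members took up 5.98% of all UMIs of FAP-like cells in the SD rat, 4.74% in chimera rat and 3.46% in mouse cells, and 11.7%, 7.18% and 4.18% of those of tenocyte-like cells. Col1a1 alone made up 59.5%, 53.1% and 39.6% of the members' UMIs in tenocyte-like cells, while Col3a1 made up 3.05%, 3.76% and 7.11%, compared with 38.3%, 40.4% and 37.4% for Col3a1 in FAP-like cells. Smoc2 Cxcl14 FAP-like cells devoted the smallest share to collagens among the rat fibroblasts, 3.63% in the SD rat and 3.01% in the chimera, against 7.87% and 6.13% in Myoc Sfrp4 fibroblast-like and 6.02% and 5.84% in Pi16 Mfap5 FAP-like cells.

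**Figure D2:**
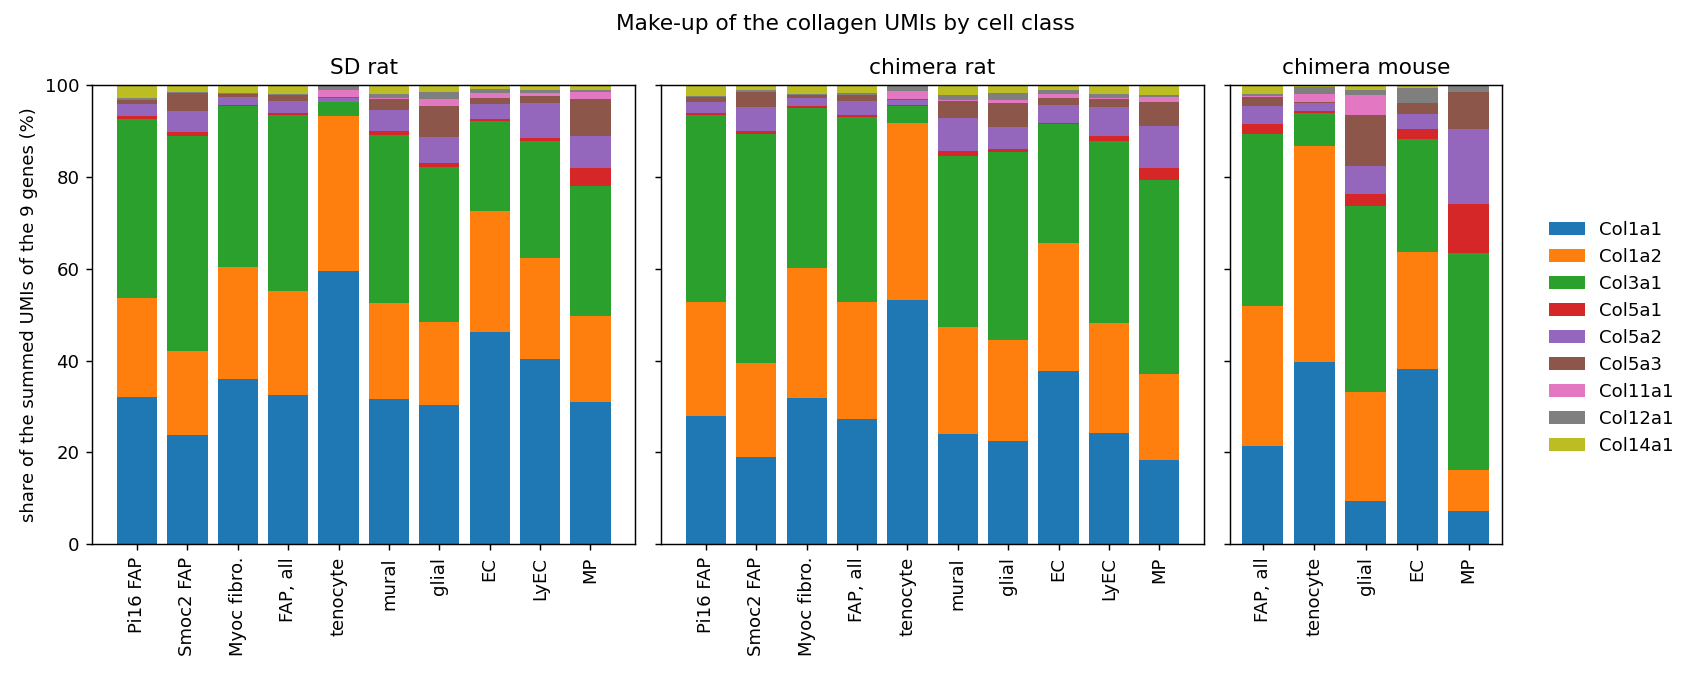
Makeup of the collagen UMIs by cell class, in percent of the summed UMIs of the 9 genes, with 1 panel for each population. Col3a1 fills 38.3% of the bar in FAP-like cells of the SD rat and 3.05% in tenocyte-like cells, where Col1a1 fills 59.5%; bars of classes with few collagen UMIs, such as mouse endothelium, rest on counts near the lymphoid level.

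Tenocyte-like cells of both rat libraries fell into 2 clusters with different collagen levels. The clusters led by Kera and Tnmd, known tendon genes (341 SD rat and 337 chimera rat cells), stood at 91206 and 53326 CPM for Col1a1, and the other clusters, with Emb, Thbs4 and Chodl as well as Tnmd among their 5 leading genes (181 and 240 cells), at 17590 and 9837. Col3a1 ran the other way, with 2530 and 2441 in the first and 6003 and 3184 in the second, and so did Col5a3, with 95.6 and 73.5 against 607 and 350. Col11a1, at 2143 and 1605 against 1301 and 941, and Col12a1, at 974 and 668 against 856 and 609, differed less between the clusters. Col22a1, a gene of the myotendinous junction that was looked up after these values had been seen, was at 3.22 and 0.912 in the Kera-led clusters and at 417 and 291 in the others. In the SD rat, the Kera-led cluster carried 4 tenocyte markers and 4 markers of the Myoc, Sfrp4 and Prg4 list among its top 10 genes. The clusters with Emb and Chodl among their leading genes stood below 2 fibroblast classes for Col1a1. These were Myoc Sfrp4 fibroblast-like cells, at 28302 and 19462, and Pi16 Mfap5 FAP-like cells, at 19345 and 16359. For Col1a2, at 12345 and 8335, the same clusters were also below both classes.

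The Smoc2 Cxcl14 FAP-like class included a cluster led by Apod in each library, a lipocalin gene, with 25076 and 26918 CPM for Apod (159 SD rat and 191 chimera rat cells) against 12.9 in the other SD rat cluster of the class and 6.34 and 82.8 in the other chimera clusters. Col14a1 stood at 98.9 and 77.8 in the Apod-led clusters, compared with 596 in the other SD rat cluster and with 293 and 490 in the other chimera clusters. Col5a3 was likewise lower, at 671 and 432 against 1441 in the SD rat and 1142 and 995 in the chimera. Col11a1 was higher, at 234 and 118 against 9.61 in the SD rat and 17.5 and 10.1 in the chimera. The mouse FAP-like cells formed a cluster of 109 cells and a cluster of 16 cells, of which the second held 6810 CPM for Apod against 458, 145 CPM for Col14a1 against 775 and 1128 CPM for Col5a3 against 659. In mouse cells, therefore, the Apod-rich cluster was lower in Col14a1 and higher in Col5a3 than the other FAP-like cluster. The Apod-rich cluster was led by Cxcl14, Apod and Smoc2, and the other by Gsn, Mgp, Igfbp6 and Mfap5. The rat comparison was made within the Smoc2 Cxcl14 class, so the mouse comparison is of another kind and shows no difference between the species. With 1 animal in each group, these cluster values are descriptions and were not tested.

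**Figure D3:**
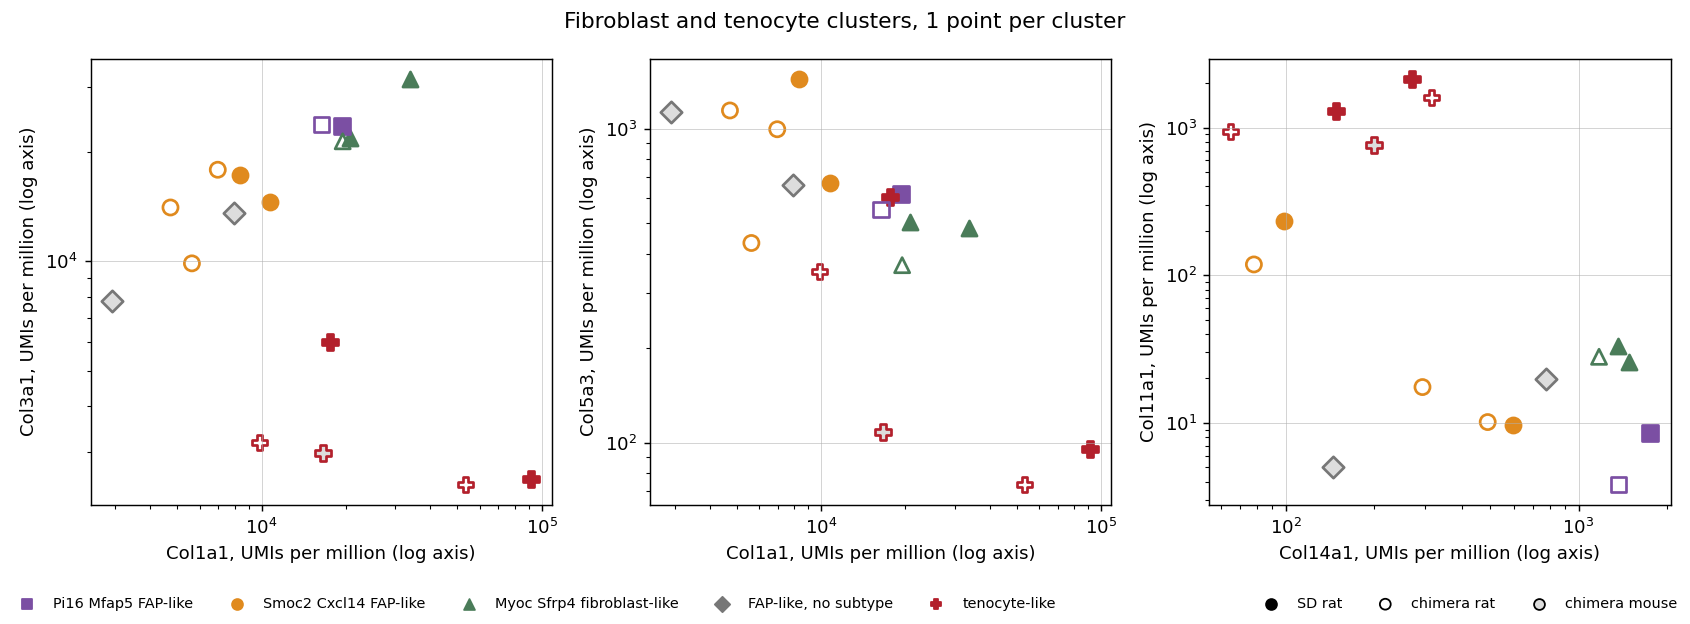
Fibroblast and tenocyte clusters, 1 point per cluster, with the level of 1 collagen gene against another in CPM on log axes. Filled points are SD rat, open points chimera rat and grey-filled points mouse clusters. The Kera-led tenocyte-like clusters lie at the highest Col1a1 (91206 and 53326) and lowest Col3a1 (2530 and 2441), and the Apod-led FAP-like clusters lie at low Col14a1 (98.9 and 77.8).

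Mural cells, which ensheath vessels, held Col1a1, Col1a2 and Col3a1 well below the fibroblasts. Col11a1, at 29.0 and 25.6 CPM in pericyte-like cells of the SD rat and the chimera, was not below FAP-like cells (27.6 and 22.6). In pericyte-like cells, Col3a1 was at 2920 and 2465 CPM in the SD rat and the chimera, where the lymphoid level was 2161 and 129, and 59.5% and 58.6% of cells thinned to 1000 UMIs held a Col3a1 UMI against 33.5% and 9.49% of lymphoid cells. Col5a2 was at 358 and 406 against 129 and 15.9 in lymphoid cells, and Col5a3 at 187 and 248 against 47.5 and 7.25. Col5a2 and Col5a3 were the 2 members clearly above the lymphoid level in SD rat pericyte-like cells, where Col5a1 (67.1 against 19.0), Col12a1 (71.9 against 24.3) and Col11a1 (29.0 against 12.7) were also past 2-fold in level. In the chimera 8 members were clearly above it, and Col11a1, at 25.6 against 10.5, was not. Col1a1, at 2525 and 1649, rested on few cells, as 1 cell held 24.1% and 32.4% of its UMIs and the median cell stood at 821 and 308. In the smooth muscle-like cells of the chimera, Col1a1 was at 316 and Col3a1 at 555 CPM, and haemoglobin genes were among the leading genes of that cluster. Markers of FAPs summed to 1609 and 1850 CPM in pericyte-like cells of the SD rat and the chimera, against 2010 and 280 in lymphoid cells, and their part in the collagen levels was not tested.

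Among the classes named for a cell type outside the fibroblasts, glial-like cells held the most Col1a1 and Col3a1 in the SD rat and the chimera rat cells. Cycling cells, which were given no cell type, held more in the rat, with 5841 and 6207 CPM for Col1a1 and 7470 and 7329 for Col3a1 (102 SD rat and 115 chimera rat cells). Col3a1 was at 3907, 4174 and 1208 CPM in SD rat, chimera rat and mouse glial-like cells, and Col5a3 at 775, 527 and 331, and the rat values lay within the range of the fibroblast classes for Col5a3. The share of thinned glial-like cells with a Col5a3 UMI was 50.4%, 41.2% and 25%, whereas 2.48% of SD rat and 0.384% of chimera rat lymphoid cells had one. The ratio of Col5a3 to Col5a2 UMIs was 1.19, 1.07 and 1.82, higher than in every fibroblast and tenocyte class. Of the 9 members, 5 stood clearly above the lymphoid level in SD rat glial-like cells (Col5a1, Col5a2, Col5a3, Col11a1 and Col12a1), 9 in chimera rat and 7 in mouse cells. In mouse cells the other two, Col12a1 and Col14a1, rested on 3 UMIs each.

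FAP markers summed to 2204 and 2225 CPM in SD rat and chimera rat glial-like cells, and to 642 in mouse ones, in which 7 of the 10 markers, Pdgfra among them, were at 0. The part of free or fibroblast RNA in the rat glial levels was not tested.

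Endothelial levels were nearer to the lymphoid level in the SD rat and in mouse cells than in chimera rat cells. In EC-like cells Col1a1 was at 1769, 816 and 45.0 CPM in SD rat, chimera rat and mouse cells, beside 1731, 271 and 28.2 in lymphoid cells, and Col3a1 was at 756, 560 and 29.2 beside 2161, 129 and 25.8. No member was clearly above the lymphoid level in SD rat or mouse EC-like cells, although Col11a1 in the SD rat (42.9 against 12.7) and Col5a1, Col5a2 and Col5a3 in mouse cells (19, 28 and 20 UMIs) were past 2-fold in level. In chimera rat EC-like cells 6 members were clearly above it, while the median cell held 104 CPM for Col1a1 and no Col1a2 or Col3a1 UMI. In the SD rat, EC-like clusters led by Hbb-b1 (481 cells) or by Flt1 and Hbb-b1 (457 cells) held 4447 and 3511 CPM for Col1a1, against 857 in the cluster led by Flt1 and Fabp4 (608 cells) and 778 in the cluster led by the venular gene Selp (60 cells). Their median depth was 705 and 1390 UMIs, against 3516.5 and 4603.5. In chimera rat cells, the EC-like cluster led by Fabp4, Hba-a2 and Hbb-b1 held 722 (458 cells, median depth 4621.5) and the cluster led by Flt1 and Dach1 2205 (191 cells, median depth 1797). In rat cells of both libraries the shallower clusters thus held more Col1a1, whether or not haemoglobin genes led them, and the part of free RNA in this was not tested. LyEC-like cells gave 935 and 588 CPM for Col1a1 in the SD rat and the chimera, with 1 cell holding 41.6% and 41.7% of them. No member was clearly above the lymphoid level in SD rat LyEC-like cells and 6 were so in the chimera, among them Col3a1 at 962 against 129.

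In MP-like cells the type V chains Col5a1 and Col5a3 were clearly above the lymphoid level in the 3 populations. Col5a3 was at 225, 100 and 47.8 CPM in SD rat, chimera rat and mouse MP-like cells, and Col5a1 at 105, 53.1 and 63.0, where lymphoid cells held 47.5, 7.25 and 0.487 and 19.0, 1.78 and 0.973. They were the 2 members clearly above it in the SD rat, where Col11a1 was past 2-fold in level at 44.8 against 12.7. Col3a1 and Col5a2 were clearly above it in chimera rat and mouse cells as well, with Col3a1 at 827 against 129 and at 282 against 25.8, and Col14a1 in chimera rat cells. In both rat libraries Col5a3 was lower in the cluster led by Myog or Actc1, genes of differentiating myoblasts, than in the Cpa1-led cluster. Its level was 21.8 and 30.6 CPM in the first (49 SD rat and 88 chimera rat cells). In the second it was 289 and 134 (310 and 332 cells). Col5a1 went the same way, from 127 and 74.3 in the Cpa1-led cluster to 34.5 and 9.0. Col1a1, Col1a2, Col3a1 and Col14a1 were lower in the Myog-led cluster of the SD rat but higher in the Actc1-led cluster of the chimera. There, Col3a1 was at 1252 against 623 and Col14a1 at 88.2 against 19.4. Mouse MP-like cells held 0 UMIs of Col11a1 and of Col14a1, which allows a level of up to 6.51 CPM for each.

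Chimera rat cells were then set beside SD rat cells of the same class. In the 3 fibroblast classes and the tenocyte-like class, 0 of 36 pairs of member and class differed by 2-fold, and 31 of the 36 log2 ratios were below 0. The share of all genes at least 2-fold lower was 2.31% in Pi16 Mfap5 FAP-like, 1.68% in Smoc2 Cxcl14 FAP-like, 1.62% in Myoc Sfrp4 fibroblast-like and 2.19% in tenocyte-like cells, and the share that much higher was 1.04%, 1.1%, 0.986% and 1.19%. In all FAP-like cells together, the median log2 ratio was -0.27 over the members and 0.07 over all genes tested, and in tenocyte-like cells -0.51 and -0.03.

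Col1a1 was the member with the lowest ratio in tenocyte-like cells, at -0.86 on the log2 scale (69421 in the SD rat and 38164 in the chimera), lower than all but 3.43% of the genes tested there. In FAP-like cells it was -0.59 (interval -0.59 to -0.58), with -0.24 in Pi16 Mfap5 FAP-like, -0.59 in Smoc2 Cxcl14 FAP-like and -0.54 in Myoc Sfrp4 fibroblast-like cells. Myoc Sfrp4 fibroblast-like cells, the fibroblasts highest in Col1a1, numbered 1482 in the SD rat and 933 in the chimera. Smoc2 Cxcl14 FAP-like cells, the lowest, numbered 1312 and 1215. The part of these numbers in the ratios of all FAP-like cells together was not tested. The SD rat Myoc Sfrp4 class joined a cluster led by Sfrp4 and Cyp7b1 (808 cells), at 33761 CPM for Col1a1. Its other cluster, led by Prg4, Sfrp4 and Myoc (674 cells), was at 20697. In the chimera this class was a single cluster led by Myoc and Sfrp4, at 19462. The part of this make-up in the ratio of the class was not tested. Col1a2, the partner chain, was -0.17 in FAP-like and -0.51 in tenocyte-like cells, and Col3a1 was -0.26 and -0.40. Col12a1 and Col5a2 lay nearest to 0 in FAP-like cells, at 0.10 and -0.07. Col11a1 was -0.98 in Pi16 Mfap5 FAP-like cells, from 52 UMIs in the SD rat and 24 in the chimera, levels at or below those of lymphoid cells.

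The libraries had been mapped to different references. In chimera rat cells, the mouse row of the same name received 15.8% of the Col1a1 UMIs of the pair, 7.60% of Col1a2, 8.43% of Col3a1, 39.4% of Col5a1, 10.8% of Col11a1 and 13.1% of Col12a1, but 0.687% of Col5a2, 2.56% of Col5a3 and 0.907% of Col14a1, and the SD rat was mapped to rat genes alone. With both rows added in the chimera, the log2 ratio of Col5a1 in FAP-like cells went from -0.76 to -0.12 and that of Col1a1 from -0.59 to -0.43, while Col1a1 in tenocyte-like cells went from -0.86 to -0.69. The member median with both rows added was -0.15 in FAP-like cells, beside 0.09 for all genes, and -0.39 in tenocyte-like cells, beside -0.01. Of the 3 members with under 5% of UMIs on the mouse row, Col14a1 was -0.42 in FAP-like and -0.04 in tenocyte-like cells, Col5a3 -0.31 and -0.54, and Col5a2 -0.07 and -0.30.

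**Figure D4:**
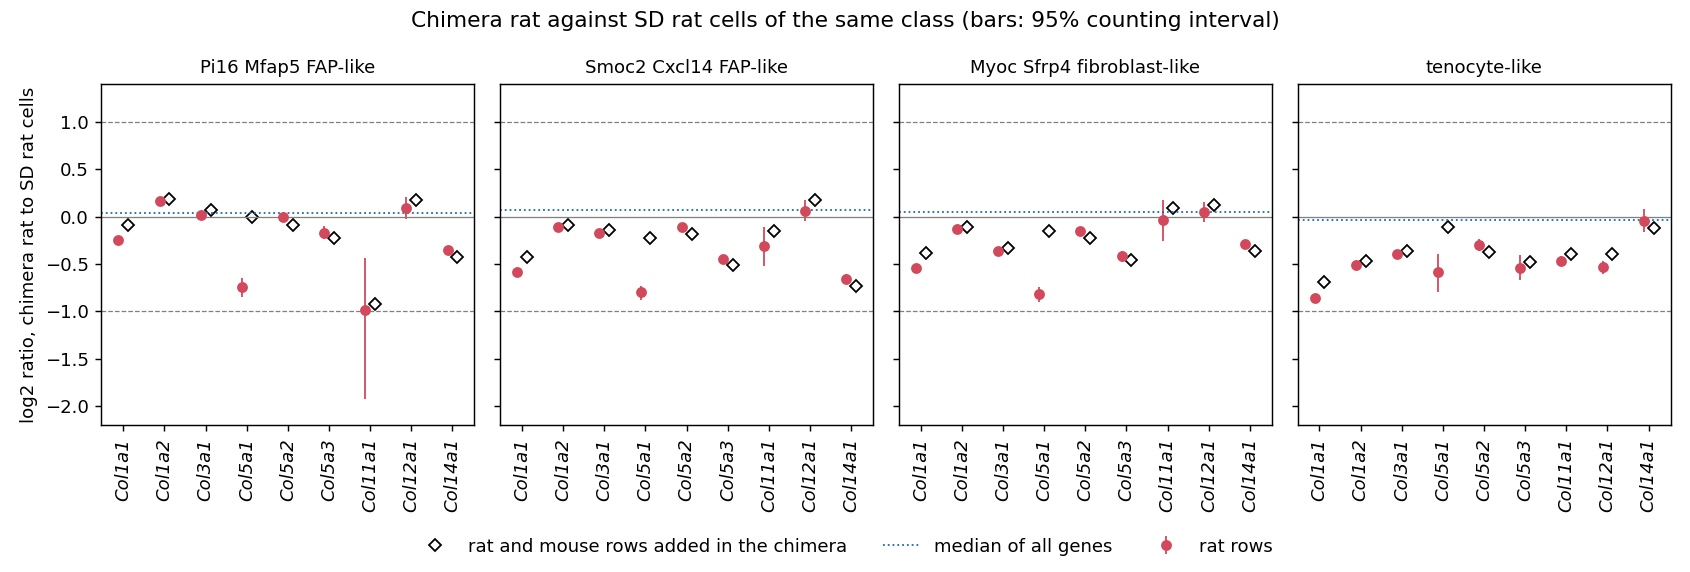
Log2 ratio of chimera rat to SD rat cells for the 9 collagen genes in 3 fibroblast classes and tenocyte-like cells. Red points with bars are rat genes with their 95% counting interval, open diamonds have the rat and mouse rows added in the chimera, the dotted line is the median of all genes and dashed lines mark 2-fold. No red point lies beyond 2-fold, and Col5a1 shows the widest gap between point and diamond, from -0.746 to -0.001 in Pi16 Mfap5 FAP-like cells and from -0.588 to -0.107 in tenocyte-like cells.

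Over these 4 classes and the mural-like, glial-like, EC-like and LyEC-like classes, 69 pairs were tested, of which 7 were at least 2-fold lower in chimera rat cells and 0 were higher, and none of the 7 was in a fibroblast or tenocyte class. They were Col1a1 (-1.53), Col3a1 (-1.10) and Col11a1 (-1.04) in mural-like cells, Col11a1 in glial-like cells (-1.503), and Col1a1 (-1.11), Col5a1 (-2.02, from 79 and 13 UMIs) and Col11a1 (-1.17) in EC-like cells, with 3.6%, 3.39% and 3.15% of all genes 2-fold lower and 1.66%, 3.25% and 3.04% higher in the 3 classes. In LyEC-like cells, where 3.29% of genes were lower and 2.56% higher, Col14a1 came nearest at 0.98 (from 19 UMIs in the SD rat and 35 in the chimera, of which 1 cell held 42.1% and 54.3%). With the mouse rows added in the chimera, Col1a1 in EC-like cells was -0.92 and no longer 2-fold lower, and the other 6 pairs still were. Mural-like cells of the SD rat were all pericyte-like, whereas those of the chimera included the 155 smooth muscle-like cells, and pericyte-like cells alone gave -0.61 for Col1a1, -0.24 for Col3a1 and -0.17 for Col11a1, in a class in which 7.92% of genes were lower and 2.35% higher. Lymphoid cells had Col1a1 6.39-fold, Col3a1 16.7-fold and Col5a1 10.7-fold higher in the SD rat than in chimera rat cells. Their Col11a1 was 1.2-fold higher, from 12 and 77 UMIs. With the lymphoid level subtracted, an alternative chosen after seeing the data, the log2 ratios of Col11a1 were -2.11, -1.67 and -1.79 in mural-like, glial-like and EC-like cells. The other 4 pairs were then no longer 2-fold lower. The part of free RNA in the 7 pairs was not tested. In MP-like cells, Col1a1 was -1.26 and Col5a3 -1.16, with 2.29% of genes lower and 1.45% higher.

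Mouse cells were set beside rat cells of the same chimera, which shared digestion, sort and library but not the gene models. In FAP-like cells (125 mouse and 2618 rat), 1 of the 9 members, Col5a1, was at least 2-fold higher and 0 were lower, where 17.6% of all 10333 gene pairs tested were that much higher and 15% lower. In tenocyte-like cells (39 and 577), Col5a1 was higher and Col1a1 lower, against 13.2% and 17.4% of gene pairs. Col5a1 was 2.05 higher on the log2 scale in FAP-like cells (interval 1.97 to 2.14) and 1.75 higher in tenocyte-like cells (1.48 to 2.05). With both rows added in each cell, which adds back the rat reads counted on the mouse gene, the Col5a1 ratios were 1.38 and 1.25, still beyond 2-fold. Col1a1 was -0.81 in FAP-like and -1.20 in tenocyte-like cells, and -1.39 in the latter with both rows added. The call for Col1a1 in tenocyte-like cells was lost at a species threshold of 90% (-0.67) and with at least 1000 UMIs a cell (-0.74). Mouse tenocyte-like cells were 1 cluster, at 16563 CPM for Col1a1 and 212 for Col22a1. The rat class joined a cluster at 53326 and 0.912 and a cluster at 9837 and 291. Mouse FAP-like cells were given no subtype. The part of class make-up in the ratios of mouse to rat cells was not tested.

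The other members lay within 2-fold in both classes. Col5a2 (-0.06) and Col5a3 (0.08) were nearest to 0 in FAP-like cells, and Col12a1 (-0.09) and Col3a1 (0.14) in tenocyte-like cells, where Col11a1 was -0.85. In glial-like cells, 6 of the 7 members tested were at least 2-fold lower in the mouse cells, which numbered 25 and held 278 member UMIs, where 24.9% of gene pairs were lower and 9.55% higher, with Col1a1 at -3.04 and Col3a1 at -1.79. All 8 members tested in EC-like cells were that much lower, where 16% of gene pairs were lower and 15.9% higher, with Col1a1 at -4.15 and at -2.33 with both rows added. Rat and mouse lymphoid cells of the chimera differed in the same direction, at 271 and 28.2 CPM for Col1a1, and the part of free RNA in the glial and endothelial differences was not tested. In mouse EC-like cells, the rat row held 76.6% of the Col1a1 UMIs of the pair and 79.1% of those of Col3a1. For Col1a1 it held 53.6% in mouse glial-like, 2.12% in FAP-like and 1.11% in tenocyte-like cells. Own-species levels leave these UMIs out, and the values with both rows added include them.

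**Figure D5:**
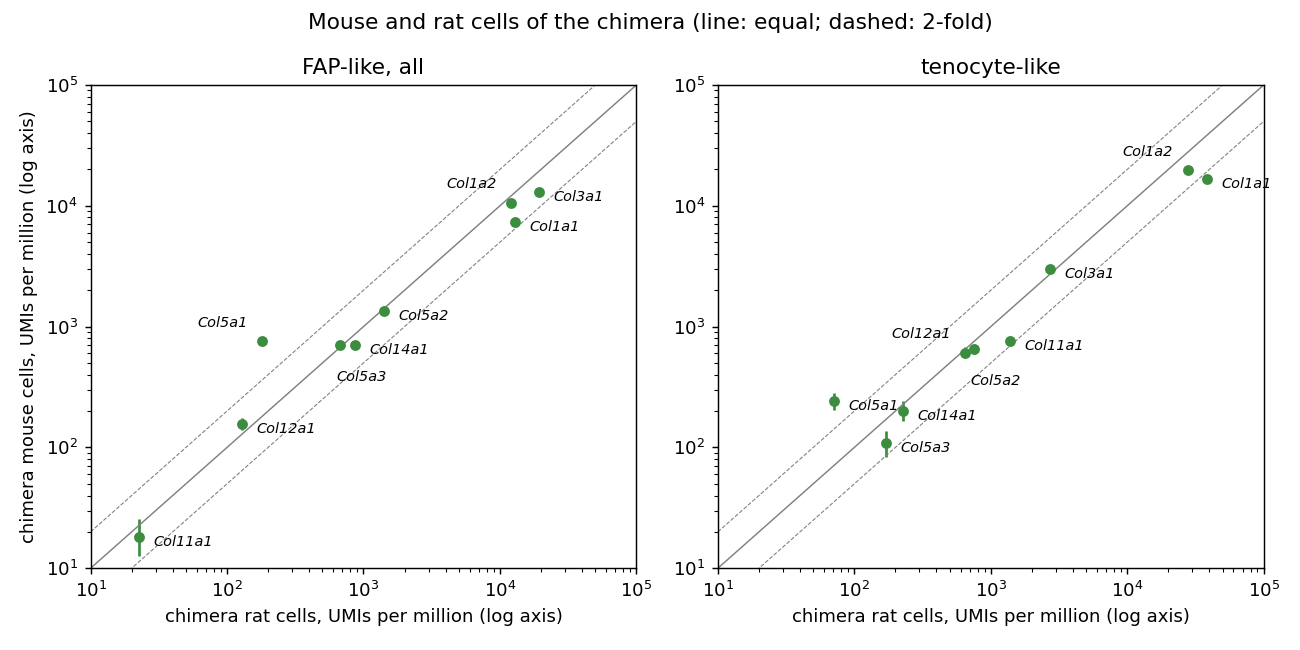
Level of the 9 collagen genes in mouse cells against rat cells of the chimera, in CPM on log axes, in FAP-like and tenocyte-like cells. The solid line marks equal levels, the dashed lines 2-fold, and bars the 95% counting interval of the mouse level. Col5a1 lies above the upper dashed line in both panels (753 against 181 and 241 against 70.9) and Col1a1 below the lower one in tenocyte-like cells (16563 against 38164).

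Genes that process and bind the fibrils were counted from lists. Between tenocyte-like and FAP-like cells of the SD rat, where 5.39% of all genes were at least 2-fold higher and 9.44% lower, 3 of 16 genes of procollagen folding were at least 2-fold higher and 1 lower, 4 and 2 of 11 genes of cleavage and cross-linking, 4 and 2 of 9 fibril-binding genes, 2 and 2 of 11 receptor and turnover genes and 3 and 0 of 4 other fibril-forming collagens. Chimera rat cells, where the shares of all genes were 4.8% and 11.3%, gave 2 and 1 of 16, 4 and 3 of 11, 4 and 2 of 9, 2 and 1 of 10, and 3 and 0 of 4. The list medians in the SD rat were 0.34, 0.28, 0.97, -0.20 and 4.35 on the log2 scale, beside -0.09 for all genes. Col11a2, the chain that accompanies Col11a1 in type XI collagen, was at 783 and 309 CPM in tenocyte-like cells of the SD rat and the chimera and at 4.47 and 2.14 in FAP-like cells. P4ha1, a subunit of the prolyl hydroxylase that stabilises the triple helix, was at 841 and 693 against 338 and 360, and Ppib and Serpinh1, a proline isomerase and a collagen chaperone, were at 1547 and 1325 against 1333 and 1134 in the SD rat, and at 1557 and 1169 against 1283 and 1231 in the chimera, where Serpinh1 was the lower in tenocyte-like cells.

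Sparc, a collagen-binding matrix protein, was at 20597 and 18833 in tenocyte-like cells of the SD rat and the chimera against 9555 and 10608 in FAP-like cells, and the proteoglycan gene Dcn at 7512 and 8699 against 8929 and 10203. Dpt, encoding dermatopontin, stood at 233 and 334 against 1827 and 1949, and the cross-linking enzyme gene Loxl1 at 81.1 and 88.7 against 254 and 254. Loxl2, of the same family, was at 480 against 372 in the SD rat, and Pcolce, an enhancer of procollagen cleavage, at 2171 against 1793. The turnover genes Mmp2, Ctsk and Mmp14 were at 543, 565 and 227 against 625, 409 and 286 in the SD rat.

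Between chimera rat and SD rat FAP-like cells, these lists showed few differences of 2-fold, with 1.52% of all genes that much lower and 0.964% higher. P4ha3 was the 1 of 16 folding genes that was lower and Mmp13 the 1 of 11 receptor and turnover genes, and 0 of 11 cleavage, 0 of 9 fibril-binding and 0 of 3 other fibril-forming genes passed. In tenocyte-like cells, Lum was higher, and Col11a2 (-1.34) and Col2a1 (-1.81) were lower, of which neither passed with the mouse rows added. The list medians there were -0.28 for folding, -0.25 for cleavage, -0.04 for fibril-binding, -0.26 for receptor and turnover genes and -0.90 for other fibril-forming collagens, beside -0.51 for the members and -0.03 for all genes. In mouse against rat FAP-like cells of the chimera, 4 of 16 folding genes were higher and 1 lower, 2 of 11 cleavage genes were higher, 1 of 9 fibril-binding genes was higher and 1 lower, 3 of 9 receptor and turnover genes were higher, and 1 of 2 other fibril-forming collagens was lower, beside 17.6% of all gene pairs higher and 15% lower.

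Likeness of pattern was measured as Pearson's r of log2 levels, after 10 CPM were added, over 27 rat classes of both libraries and 6817 genes. These points share libraries, depth and free RNA, and the values describe the classes without a test. Closest to Col1a1 were Col1a2 (0.99), Igfbp6 (0.97), Thbs2 (0.97), Cpz (0.96) and Omd (0.95), and closest to Col14a1 were Col3a1 (0.98), Adgrd1 (0.98), Has1 (0.97), Mfap5 (0.97) and Loxl1 (0.96). Col5a3 was most like Lama2 (0.96), Col5a1 (0.96), Abca8a (0.95), Col5a2 (0.95) and Rarres2 (0.95), and Col12a1 most like Col16a1 (0.96), Ecrg4 (0.94), Postn (0.93), Tmem45al (0.92) and Itgbl1 (0.92).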

How the data were processed

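Counts were deposited by the authors as UMI counts per gene and barcode, not normalized, made with Cell Ranger 7.1.0 per the submitters' processing notes, which name the builds mRatBN7.2 and GRCm39. The chimera library had been mapped to 23373 rat and 25906 mouse genes together and the SD rat library to the same rat genes alone, so a rat read could be counted on a mouse gene in the chimera library only.

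Barcodes with at least 500 UMIs, 200 genes and at most 20% mitochondrial UMIs were kept (12174 chimera and 8980 SD rat), and doublets predicted with Scrublet in scanpy 1.11.5, at an expected rate of 8%, were removed (444, 3.65%, and 164, 1.83%). Mixed chimera barcodes (1653) entered no class. Each population was clustered on 2000 variable genes of its own species, without the members and 54 list genes, with 30 components, 15 neighbours and leidenalg 0.10.2 at resolution 1. Each "X-like" name was given by a score over lists of marker genes, a rule set after the clusters had been seen, and the names are not those of the study. Gene symbols are those of the files.

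Log2 ratios were taken after adding 1 CPM, for genes with at least 50 UMIs summed over both sides, and were tested on simulated data. A zero was read as fewer than 3 UMIs. The ratio intervals follow from exact binomial intervals of the counts, and all intervals cover counting error only, since UMIs of 1 cell are not independent. With 1 library per group, no p-value was computed. Gene names in the text follow the rule of all 9 members, the 3 most abundant genes of each list and the 5 genes most like 4 of the members, and Col22a1 and the genes that lead clusters or differ by 2-fold within a list were named after their values were seen. The members, lists and comparisons were chosen with earlier results of these data known. Alternatives changed 1 choice at a time over 18 settings. A comparison between clusters of glial-like cells is not reported here.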

Additional observations from a re-analysis of the deposited data

Results flagged for a closer look

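Collagen UMIs were also found in cells that entered no comparison. The 1653 chimera barcodes with between 20% and 80% of their UMIs on mouse genes held 80948 UMIs of the 9 members on rat genes and 18596 on mouse genes. Col1a1 contributed 30766 and 8497 of these, Col3a1 21741 and 4062, and Col5a1 398 and 325. The labels do not say whether such barcodes hold cells of both species, and the members' levels in them were not assigned to a class.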

How the results depend on the processing

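No paired analysis was possible because each group had 1 library, and no library could be left out for the same reason. Over 18 alternative settings, 1639 of 1738 log2 ratios of members kept their sign and 5 ratios of at least 2-fold changed it. The 7 pairs that were 2-fold lower in chimera rat than SD rat cells became 0 of 24 without the genes with at least 5% of reads on the mouse row, 14 with doublets kept, with rat cells clustered together or with cells weighted equally, 3 of 60 at resolution 0.5, 4 of 62 with at least 200 summed UMIs, 25 at 1.5-fold and 3 with the lymphoid level subtracted, an alternative added after seeing the data. The 0 higher pairs became 1 after centring (Col14a1 in LyEC-like cells), 2 each at a 90% species threshold, with doublets kept or at 1.5-fold, and 16 with the lymphoid level subtracted. In the fibroblast and tenocyte-like classes, 0 of 36 pairs were lower, 4 at the 90% threshold (Col5a1 in 3 classes and Col5a3 in tenocyte-like cells), 8 at 1.5-fold and at most 1, Col11a1 in Pi16 Mfap5 FAP-like cells, elsewhere. The ratios that reversed were, at the 90% threshold, Col1a1 (0.94) and Col3a1 (0.78) in mural-like cells and, with the lymphoid level subtracted, Col3a1 in mural-like cells (0.70) and Col1a1 (3.80) and Col5a1 (0.39) in EC-like cells. Of mouse against chimera rat cells, the 15 lower pairs became 5 of 12 without split genes and 9 of 27 with at least 200 UMIs, and the 2 higher became 0 without split genes and 1 with species by majority. The 5 members lower in mouse tenocyte-like than FAP-like cells became 3 with at least 1000 UMIs a cell. The causes of these changes were not tested, apart from the smaller number of genes left by the settings that leave genes out. Low levels were limited by depth, as 3 UMIs stand for 32.1 CPM in mouse glial-like cells and 0.411 CPM in chimera rat lymphoid cells.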
